A study of Homo sapiens with 18 samples.

Results

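The genes described here are 50 genes of the extracellular matrix, the integrins that bind it and the focal adhesions that tie it to actin, chosen by symbol, with earlier results of these data known, and matched among 63677 genes of the count table. All 50 symbols were found, and 43 passed the count filter (over 5 counts in 10 or more libraries), as did 15576 genes in all. They fell into 13 collagens, 8 fibronectin and laminin genes, 11 integrins, 8 matricellular and other secreted matrix genes, 2 lysyl oxidases and 8 focal adhesion and actin-linking genes.

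Cells build a matrix of collagens, laminins, fibronectin and fibrillins, and lysyl oxidases crosslink it. Integrins are pairs of an alpha and a beta chain that span the membrane, hold a matrix protein outside and, through talin, vinculin, alpha-actinins, filamin, paxillin and zyxin, the actin filaments inside. Carcinoma cells that have lost epithelial character are known to keep or change these contacts as they spread and move. T-box proteins such as TBX2, TBX3, TBX4 and TBX5 are DNA-binding transcription factors of lung and limb development.

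RNA-seq was run on NCI-H1299 cells, a human non-small cell lung cancer line labelled lung adenocarcinoma, at passage 12 to 14, in 18 libraries of 6 groups with 3 libraries each. The groups were Ctl, whose treatment the labels do not state, EV, the empty vector, and cells given a plasmid for human Flag-tagged TBX2, human HA-tagged TBX3, human Flag-tagged TBX4 or mouse HA-tagged Tbx5. Transfection with Lipofectamine was transient and reached a part of the cells, so libraries of transfected cells mix cells with and without the plasmid, and fewer cells expressing a gene and less RNA per cell cannot be told apart. No source states that the 3 libraries of a group came from separate cultures, so p-values measure the spread between these libraries, which may be technical. The title of 1 library carries the number of the TBX4 series and ends in TBX5, and it was taken as TBX4 replicate c, where it held 85197 counts of TBX4 and 1 of TBX5.

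Library totals ran from 7365221 to 11743179 counts, and a level of 3 counts equalled 0.255 to 0.407 CPM (a gene's counts as a rate of its library's total), a floor that covers counting error only. Levels below are CPM scaled by the trimmed mean of M values (TMM), and the floor shifts on that scale. There, 3 counts of COL1A1 equalled 0.191 CPM in EV replicate c and 0.557 CPM in TBX5 replicate c. Each plasmid's gene was high in its own libraries, at 27704 to 47916 counts of TBX2, 135416 to 320890 of TBX3, 85197 to 109159 of TBX4 and 1161 to 1302 of the human TBX5 gene. The Tbx5 plasmid was mouse and reads were aligned to the human genome, so only reads that matched the human gene were counted. The TBX5 counts therefore cannot be set against those of the other plasmids. A gene without a symbol took 10.7 to 53.5% of a library's counts, with 13.2 to 18.6% in the 3 TBX4 libraries and 53.5 and 52.7% in TBX5 replicates b and c. The cells held the keratins KRT8 and KRT18 and the mesenchymal markers VIM, CDH2 and ZEB1 in every library. Of the other epithelial and lung adenocarcinoma markers, EPCAM, CDH1, KRT19, NKX2-1 and SFTPC were at 4 counts or fewer, SFTPB at 0 to 9, NAPSA at 1 to 10 and KRT7 at 1 to 28. With TBX2 the mean of KRT8 was 21.5 CPM against 37.6 in the controls, and that of KRT18 was 47.3 against 70.0. VIM (721 against 895) and CDH2 (24.5 against 29.2) were lower too, and ZEB1 (51.4 against 43.1) and the scarce KRT7 (2.37 against 0.939) were higher. With TBX3 the means of KRT8 and KRT18 were 27.8 and 52.6. The part of these markers in the TBX2 and TBX3 results was not tested. The fibroblast, endothelial and immune markers were near 0, with at most 8, 7 and 12 counts in a library.

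In the controls the members spanned from undetected to among the abundant transcripts of the line. Per kilobase of exon the highest were the focal adhesion and actin-linking genes ACTN4 (58.2 CPM per kb) and FLNA (50.5), the matricellular genes CCN1 (45.3) and CCN2 (32.3), and the integrin chain ITGA6 (44.00). VCL (28.7), ITGB1 (28.4), TLN1 (26.05) and ITGA3 (23.2) followed. ITGA3 and ITGA6, each with ITGB1, form laminin receptors. Among secreted matrix chains the highest per kilobase was LAMC1, the laminin gamma-1 chain, at 13.5 CPM per kb, and among collagens COL6A2, at 4.09. The length is that of all annotated exons of a gene merged, not of 1 transcript, so this order depends on the annotation. In CPM without that division FLNA (549) and ITGB1 (414, over 14561 exon bases) lay above ACTN4 (356, over 6125). Among collagens COL12A1 (50.8, over 18860) then lay above COL6A2 (21.8, over 5334). The 7 genes below the count filter were the fibrillar collagen genes COL1A1, COL1A2 and COL3A1, the basement membrane collagen genes COL4A1 and COL4A2, COL6A3, and SPARC, a collagen-binding matricellular protein. None of them passed 8 counts in any library, and COL1A2, COL3A1, COL4A1 and COL4A2 had at most 2, so they were not tested. COL6A3 held 3, 5 and 4 counts in the TBX2 libraries and at most 2 in any control, which is at the floor.

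**Figure D1:**
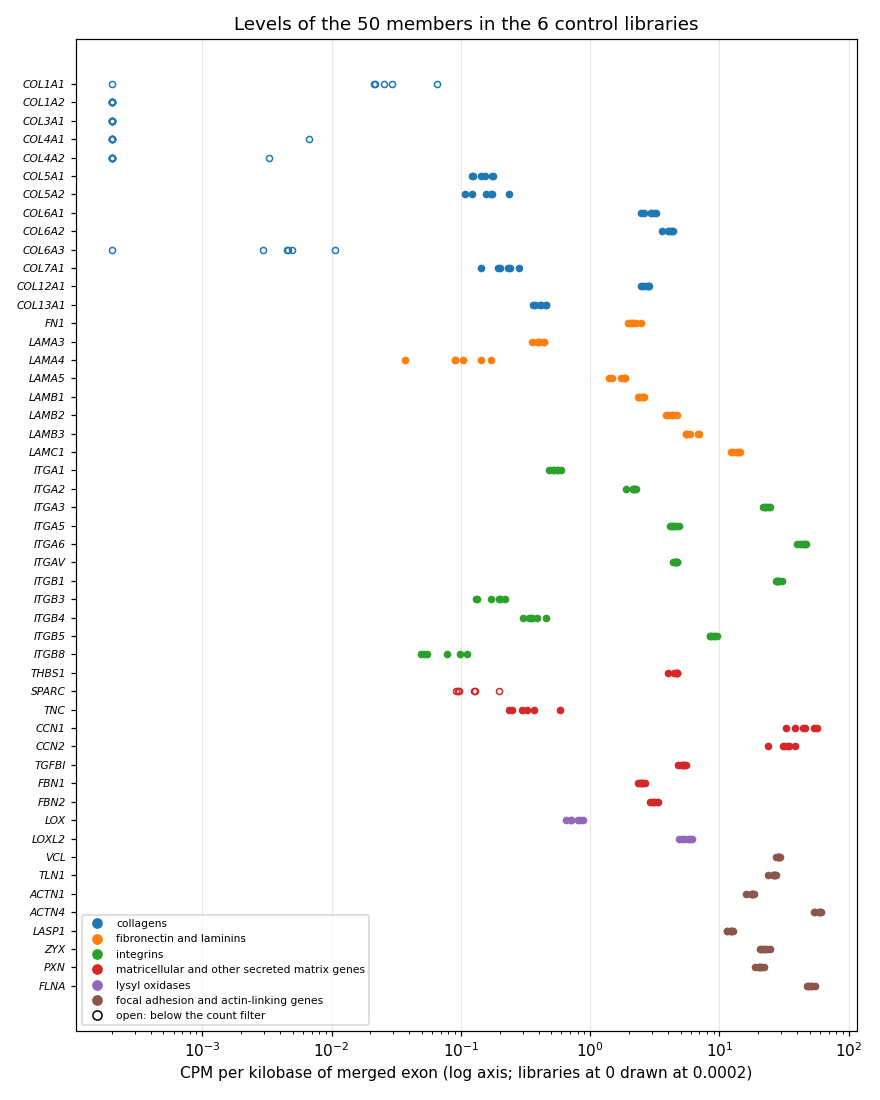
Level of each of the 50 members in the 6 control libraries, in CPM per kilobase of merged exon on a log axis, 1 point per library and 1 colour per role. Open points mark the 7 members below the count filter, and libraries at 0 are drawn at the left edge. ACTN4 lies highest, at a mean of 58.2.

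T-box proteins are known to bind a short half-site, and TEAD and AP-1 factors, which act on many adhesion genes, have short motifs of their own. RefSeq promoter sequence (GRCh38.p14) was at hand for 40 of the 50 members, and the 250 bases before the first listed start site were searched on both strands. The T-box half-site AGGTGTGA was in 0.787% of 27305 promoters and in none of the 40. Its core GGTGTG was in 14.0% of all promoters and in 6 of the 40 (15%), namely LAMB2, LAMB3, ITGA1, ITGA6, CCN2 and ACTN1. The TEAD motif GGAATG was in 11.9% of all and in 8 of the 40 (20%), and the AP-1 motif TGANTCA in 6.60% of all and in 2 of the 40 (5%). These shares are descriptions and no site was tested for binding.

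Windows of 6 genes are shown, because these genes are described library by library and hold at least 1 of the motifs, which are in capitals. VCL also held a TEAD motif, at -171 to -166 from its start site, and is not shown. CCN2 (chr6:131951437-131951566 on the reverse strand, -194 to -65 from the start site) held 3 TEAD motifs around a T-box core. THBS1 (chr15:39581008-39581063 on the forward strand, -71 to -16 from the start site) and COL12A1 (chr6:75206190-75206245 on the reverse strand, -192 to -137 from the start site) held 1 TEAD motif each. ITGA6 (chr2:172427086-172427123 on the forward strand, -250 to -213 from the start site) and ITGA1 (chr5:52787837-52787892 on the forward strand, -79 to -24 from the start site) held a T-box core, and ACTN4 (chr19:38647399-38647432 on the forward strand, -250 to -217 from the start site) an AP-1 motif.
CCN2: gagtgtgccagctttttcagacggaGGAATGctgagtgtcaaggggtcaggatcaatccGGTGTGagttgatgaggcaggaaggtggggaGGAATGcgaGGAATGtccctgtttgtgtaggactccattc
THBS1: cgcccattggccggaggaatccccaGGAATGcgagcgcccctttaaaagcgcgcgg
COL12A1: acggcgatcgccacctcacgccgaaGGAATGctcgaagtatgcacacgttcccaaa
ITGA6: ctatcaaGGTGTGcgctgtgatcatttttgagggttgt
ITGA1: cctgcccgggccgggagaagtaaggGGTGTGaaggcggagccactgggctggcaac
ACTN4: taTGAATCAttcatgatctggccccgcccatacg

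Each TBX was compared with the 6 pooled controls to ask which genes differed in its libraries. The labels do not name the vector of EV, so T-box protein, vector and tag cannot be told apart in these comparisons. The 4 comparisons share these controls, so their values are given side by side and their likeness is not read as a result. With TBX2, 22 of the 43 tested members passed an adjusted p of 0.1 in edgeR's quasi-likelihood test, 7 higher and 15 lower, where over all tested genes 17.0% were called higher and 15.6% lower. That is 16.3% of the members higher, near the background, and 34.9% lower. With TBX3, 1 member was called higher and 12 lower (2.33% and 27.9% of the members), against 8.47% and 6.40% of all genes. With TBX4, 2 were higher and 9 lower (4.65% and 20.9%), against 6.98% and 6.07%. With TBX5, 6 were higher and 6 lower (14.0% each), against 6.56% and 6.12%. The background depends on the count filter. In either direction 32.6%, 14.9%, 13.0% and 12.7% of all tested genes were called in the order TBX2 to TBX5. Among genes with at least 10 counts in every library these shares were 39.6%, 20.6%, 16.1% and 16.5%. With that filter 21, 15, 11 and 11 of 37 members were called. Log2 fold changes are given as the fitted value ± SE. The median log2 fold change over the tested members was -0.14, -0.097, -0.039 and -0.023 in the order TBX2 to TBX5, where that over all tested genes lay between -0.0058 and -0.0013. Under scaling by raw library totals, which shifts the median of all genes by 0.25 with TBX4, the TBX4 calls were 12 higher and 0 lower, and the called counts were 7 with TBX2, 0 with TBX3 and 1 with TBX5. That scaling turned the sign of FBN2, VCL and ACTN1 with TBX4 and of ITGA5 and ZYX with TBX5, so directions are relative to the other genes of a library. The share of the gene without a symbol was low in the TBX4 group, and with that share as a covariate 7 members were called with TBX4.

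**Figure D2:**
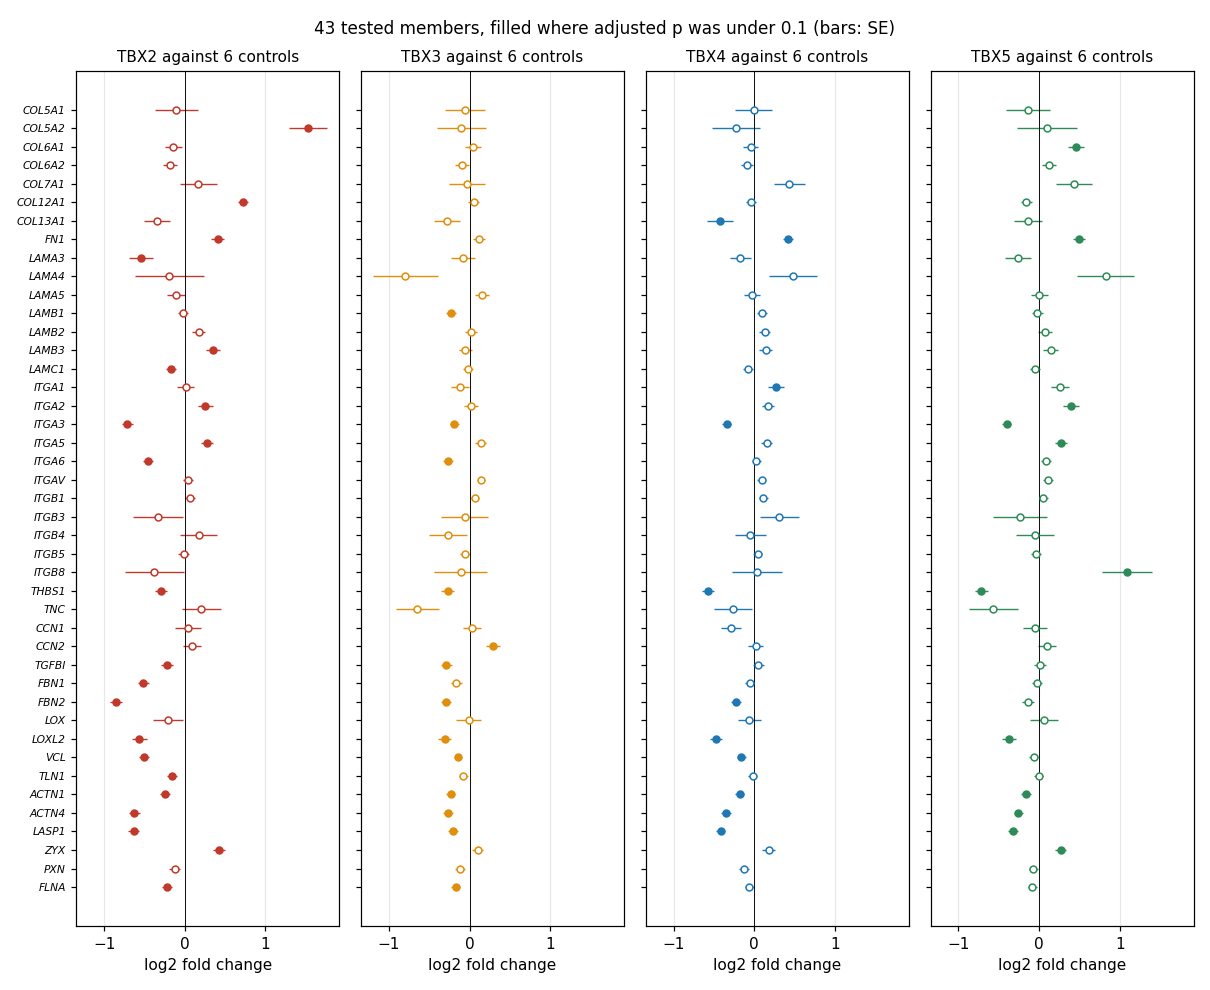
Log2 fold change of the 43 tested members with each TBX against the 6 controls, with SE bars, where filled points passed an adjusted p of 0.1. Filled points lie mostly left of 0 with TBX2, TBX3 and TBX4, at 15, 12 and 9 genes called lower, and are 6 on each side with TBX5.

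Of the 8 focal adhesion and actin-linking genes, 6, 5, 4 and 3 were called lower in the order TBX2 to TBX5, and the median log2 fold changes of the 8 were -0.23, -0.16, -0.14 and -0.077. Over all tested genes 15.6%, 6.40%, 6.07% and 6.12% were called lower. LASP1, an actin-binding LIM and SH3 protein of focal adhesions (chr17:37026112-37078023, forward strand, GRCh37), and ACTN4, the non-muscle alpha-actinin-4 that crosslinks actin (chr19:39138289-39222229, forward strand), were called lower with each TBX. LASP1 held 80.97 to 89.2 CPM in the 6 controls (median 86.6), 56.8, 57.3 and 49.8 with TBX2, 76.9, 79.6 and 66.7 with TBX3, 60.9, 66.2 and 65.1 with TBX4, and 67.4, 66.9 and 71.6 with TBX5. Every TBX library lay below every control. For LASP1 the fitted log2 fold change was -0.64 ± 0.065 with TBX2 (adjusted p = 1.58e-07), -0.21 ± 0.063 with TBX3 (adjusted p = 0.0346), -0.42 ± 0.057 with TBX4 (adjusted p = 2.19e-05) and -0.32 ± 0.062 with TBX5 (adjusted p = 0.00214). The TBX3 call of LASP1 was lost without TBX3 replicate c (-0.13, adjusted p = 0.271) and with the Ctl controls alone (adjusted p = 0.102). ACTN4 held 332 to 375 CPM in the 6 controls (median 363), 252, 209.6 and 231 with TBX2, 309, 303 and 275 with TBX3, 258, 292 and 290.4 with TBX4, and 299, 294 and 302 with TBX5. Here too no TBX library reached the lowest control. Fitted against the controls, ACTN4 gave log2 fold changes of -0.63 ± 0.068 with TBX2 (adjusted p = 3.71e-07), -0.27 ± 0.061 with TBX3 (adjusted p = 0.00549), -0.35 ± 0.059 with TBX4 (adjusted p = 2.95e-04) and -0.26 ± 0.058 with TBX5 (adjusted p = 0.00704). Other genes cover 14.2% of the exon bases of ACTN4, where reads were counted without strand.

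VCL, or vinculin, which binds talin and actin under load, was lowest with TBX2. VCL held 276 to 296 CPM in the 6 controls (median 286), 203, 205 and 197 with TBX2, 268, 259 and 250.6 with TBX3, 252, 256 and 263 with TBX4, and 275, 273 and 273 with TBX5. All 12 TBX libraries lay below the lowest control. The log2 fold change of VCL was -0.51 ± 0.057 with TBX2 (adjusted p = 6.17e-07), -0.15 ± 0.054 with TBX3 (adjusted p = 0.0899), -0.16 ± 0.051 with TBX4 (adjusted p = 0.0478) and -0.067 ± 0.053 with TBX5 (adjusted p = 0.498). Its TBX3 call was lost in 7 of the 9 fits that left out 1 library, and its TBX4 call without TBX4 replicate a or b. ACTN1, the other non-muscle alpha-actinin, was called lower with each TBX, at -0.25 ± 0.065 with TBX2 (adjusted p = 0.00686), -0.23 ± 0.056 with TBX3 (adjusted p = 0.00906), -0.18 ± 0.058 with TBX4 (adjusted p = 0.0490) and -0.16 ± 0.057 with TBX5 (adjusted p = 0.0851). The TBX5 call of ACTN1 was lost in 8 of the 9 fits that left out 1 library, and its TBX4 call without TBX4 replicate a or c. FLNA, the actin crosslinker filamin A, was lower at -0.22 ± 0.067 with TBX2 (adjusted p = 0.0171) and -0.17 ± 0.061 with TBX3 (adjusted p = 0.0700), and the TBX2 call was lost without TBX2 replicate c, the TBX3 call in 4 of the 9 fits that left out 1 library. TLN1, or talin-1, which activates integrins, was lower with TBX2 (-0.16 ± 0.064, adjusted p = 0.0710), a call lost in 5 of the 9 fits that left out 1 library.

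ZYX, or zyxin, a LIM protein of mature adhesions and stress fibres, went the other way. ZYX held 67.03 to 80.04 CPM in the 6 controls (median 71.8), 105, 85.96 and 101 with TBX2, 83.3, 80.02 and 71.1 with TBX3, 67.1, 93.7 and 86.02 with TBX4, and 86.9, 87.8 and 87.7 with TBX5. The 3 TBX2 and the 3 TBX5 libraries lay above every control, and the TBX4 libraries spread from the lowest control value upward. For ZYX the fitted log2 fold change was 0.42 ± 0.070 with TBX2 (adjusted p = 1.01e-04), 0.099 ± 0.066 with TBX3 (adjusted p = 0.387), 0.18 ± 0.076 with TBX4 (adjusted p = 0.158) and 0.27 ± 0.064 with TBX5 (adjusted p = 0.0108). PXN, or paxillin, an adhesion scaffold, passed in none of the 4, with log2 fold changes from -0.13 to -0.070. Other genes cover 27.2% of its exon bases.

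**Figure D3:**
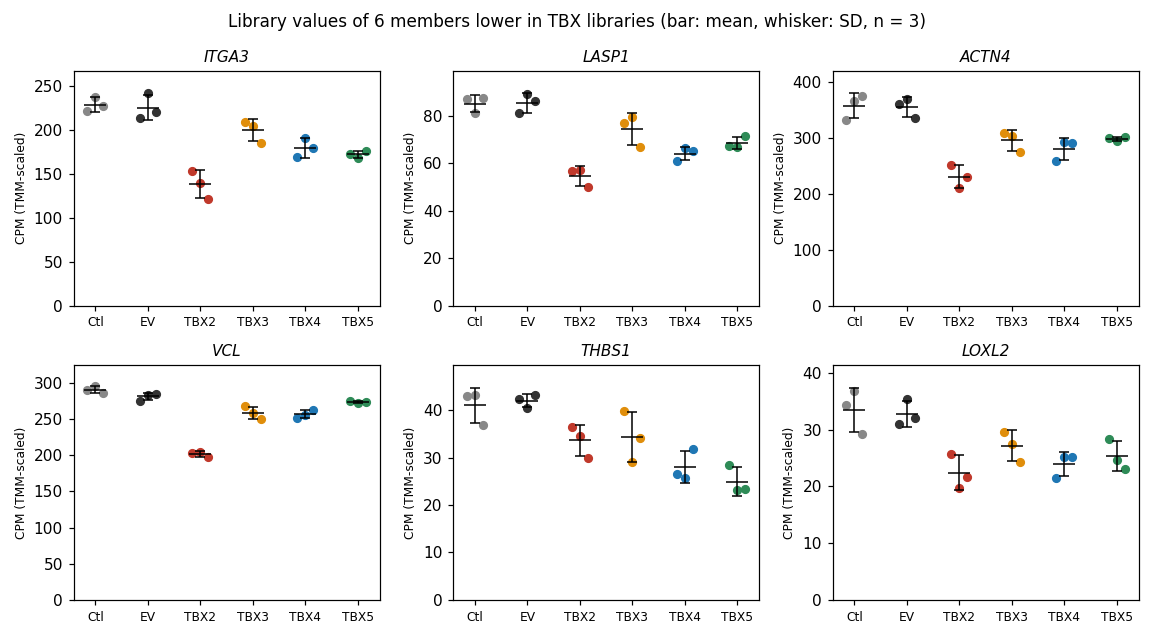
CPM in each of the 18 libraries for ITGA3, LASP1, ACTN4, VCL, THBS1 and LOXL2, by group, with the mean and SD of 3 libraries. The 3 TBX2 libraries lie lowest for ITGA3, LASP1, ACTN4 and VCL, and the TBX5 group has the lowest mean for THBS1.

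Among the integrins, ITGA3 fell with each TBX and ITGA6 with TBX2 and TBX3, while ITGA2 and ITGA5 rose with TBX2 and TBX5. ITGA3, the alpha-3 chain of a laminin receptor (chr17:48133332-48167845, forward strand), was abundant. ITGA3 held 214 to 242 CPM in the 6 controls (median 225), 154, 139.6 and 122 with TBX2, 209, 205 and 186 with TBX3, 169, 192 and 179.8 with TBX4, and 173, 168 and 176 with TBX5. No TBX library overlapped the controls. Fitted against the controls, ITGA3 gave log2 fold changes of -0.71 ± 0.069 with TBX2 (adjusted p = 7.84e-08), -0.19 ± 0.059 with TBX3 (adjusted p = 0.0404), -0.34 ± 0.057 with TBX4 (adjusted p = 2.86e-04) and -0.40 ± 0.058 with TBX5 (adjusted p = 9.97e-05), and the TBX3 call was lost without TBX3 replicate c. ITGA6, the alpha-6 chain of another laminin receptor (chr2:173292082-173371187, forward strand), had the T-box core shown above. ITGA6 held 268 to 314 CPM in the 6 controls (median 297), 207, 215 and 220.4 with TBX2, 246, 257 and 233 with TBX3, 306, 291 and 303 with TBX4, and 309, 319 and 311 with TBX5. TBX2 and TBX3 libraries lay below every control, and TBX4 and TBX5 libraries lay among or above them. The log2 fold change of ITGA6 was -0.46 ± 0.064 with TBX2 (adjusted p = 1.12e-05), -0.26 ± 0.061 with TBX3 (adjusted p = 0.00689), 0.026 ± 0.056 with TBX4 (adjusted p = 0.844) and 0.087 ± 0.059 with TBX5 (adjusted p = 0.413).

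ITGA2, the alpha-2 chain of a collagen receptor (chr5:52285170-52390609, forward strand), was low. ITGA2 held 14.9 to 17.98 CPM in the 6 controls (median 17.1), 17.5, 22.2 and 20.6 with TBX2, 17.2, 15.2 and 18.1 with TBX3, 19.6, 18.9 and 18.5 with TBX4, and 25.2, 19.98 and 20.4 with TBX5. The TBX4 and TBX5 libraries lay above every control, and TBX2 replicate a did not. For ITGA2 the fitted log2 fold change was 0.25 ± 0.092 with TBX2 (adjusted p = 0.0449) and 0.40 ± 0.095 with TBX5 (adjusted p = 0.0104), and the calls were lost without TBX2 replicate b or c and without TBX5 replicate a. The TBX2 call of ITGA2 was also lost in DESeq2, with no count filter and with the EV controls alone. ITGA5, the alpha-5 chain of the main fibronectin receptor, had log2 fold changes of 0.27 ± 0.070 with TBX2 (adjusted p = 0.00578) and 0.27 ± 0.071 with TBX5 (adjusted p = 0.0191). ITGA1, the alpha-1 chain of a collagen receptor, was called with TBX4 alone. ITGA1 held 8.88 to 10.9 CPM in the 6 controls (median 10.02), 10.4, 10.5 and 9.06 with TBX2, 9.14, 7.82 and 10.2 with TBX3, 13.3, 12.2 and 10.7 with TBX4, and 11.5, 12.9 and 12.1 with TBX5. TBX4 replicate c fell within the control range, the TBX4 log2 fold change was 0.26 ± 0.098, adjusted p = 0.0943, and the call was lost in 6 of the 9 fits that left out 1 library. It was also lost in DESeq2 and with the EV or the Ctl controls alone. The TBX5 libraries lay above every control, at a log2 fold change of like size (0.26 ± 0.11, adjusted p = 0.160) that was not called.

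ITGB8, a beta chain that pairs with the alpha-v chain and binds latent TGF-beta, was near the floor. ITGB8 held 0.749 to 1.68 CPM in the 6 controls (median 1.01), 0.801, 0.702 and 1.13 with TBX2, 0.914, 1.35 and 0.911 with TBX3, 1.52, 0.698 and 1.20 with TBX4, and 2.21, 1.58 and 3.34 with TBX5. The TBX5 libraries overlapped the controls, since replicate b fell within their range. The TBX5 log2 fold change of ITGB8 was 1.09 ± 0.31, adjusted p = 0.0336, and the call was lost without TBX5 replicate c. ITGB1, the beta-1 chain that most of these alpha chains pair with, was not called with any TBX, with log2 fold changes of 0.063 ± 0.061 with TBX2 (adjusted p = 0.491), 0.064 ± 0.058 with TBX3 (adjusted p = 0.557), 0.11 ± 0.053 with TBX4 (adjusted p = 0.212) and 0.054 ± 0.060 with TBX5 (adjusted p = 0.656). ITGAV, ITGB3, ITGB4 and ITGB5 were not called either. ITGAV, the alpha-v chain of vitronectin receptors, came nearest, at 0.14 ± 0.054, adjusted p = 0.101 with TBX3. Other genes cover 33.2% of the exon bases of ITGB3, 13.2% of those of ITGA1, 11.9% of those of CCN2 and 11.1% of those of VCL.

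Fibronectin and the laminin chains changed singly. FN1, the fibronectin gene (chr2:216225163-216300796, reverse strand), rose with TBX2, TBX4 and TBX5. FN1 held 33.98 to 42.4 CPM in the 6 controls (median 36.6), 53.8, 50.4 and 42.6 with TBX2, 38.7, 44.7 and 38.1 with TBX3, 49.5, 50.1 and 50.03 with TBX4, and 49.2, 55.98 and 53.2 with TBX5. The 9 libraries of those groups lay above every control, and the TBX3 libraries overlapped them. Fitted against the controls, FN1 gave log2 fold changes of 0.41 ± 0.079 with TBX2 (adjusted p = 5.42e-04), 0.11 ± 0.075 with TBX3 (adjusted p = 0.384), 0.42 ± 0.065 with TBX4 (adjusted p = 1.09e-04) and 0.50 ± 0.076 with TBX5 (adjusted p = 1.84e-04). LAMC1, the gamma-1 chain shared by many laminins, moved little. LAMC1 held 104 to 122 CPM in the 6 controls (median 116), 103, 99.4 and 101 with TBX2, 110.6, 120.2 and 108 with TBX3, 108, 111.0 and 106 with TBX4, and 108, 110.8 and 112 with TBX5. Only the TBX2 libraries lay wholly below the controls, at a log2 fold change of -0.17 ± 0.064, adjusted p = 0.0462, and the call was lost without TBX2 replicate b or c. It was also lost with the Ctl controls alone.

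With TBX2, LAMA3 was lower (-0.54 ± 0.15, adjusted p = 0.00954) and LAMB3 higher (0.35 ± 0.083, adjusted p = 0.00325), which code for chains of the epithelial laminin-332. LAMB1 was lower with TBX3 (-0.23 ± 0.066, adjusted p = 0.0241), a call lost without TBX3 replicate b. LAMA5 and LAMB2 passed in no comparison. LAMA4, a chain of vessel and muscle laminins, was near the floor in these cells at 1.27 ± 0.555 CPM (SD, n = 6) and passed in none of the comparisons with controls, with log2 fold changes from -0.80 with TBX3 to 0.82 with TBX5.

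Of the 7 tested collagen genes, 2 rose with TBX2, 1 fell with TBX4 and 1 rose with TBX5. Over all tested genes 17.0% were called higher with TBX2, 6.07% lower with TBX4 and 6.56% higher with TBX5, and such small counts are not read as a result. COL12A1, a collagen of the surface of fibrils (chr6:75794042-75915983, reverse strand), gave the lowest p of the rises. COL12A1 held 46.5 to 54.2 CPM in the 6 controls (median 51.6), 81.7, 85.3 and 84.2 with TBX2, 47.6, 51.3 and 57.8 with TBX3, 48.2, 48.7 and 52.1 with TBX4, and 46.7, 44.1 and 45.8 with TBX5. All 3 TBX2 libraries lay above every other library. The TBX2 log2 fold change of COL12A1 was 0.72 ± 0.062, adjusted p = 1.10e-08. COL5A2, a chain of the collagen that nucleates fibrils, was scarce. COL5A2 held 0.782 to 1.71 CPM in the 6 controls (median 1.20), 2.86, 3.61 and 3.72 with TBX2, 1.18, 0.902 and 1.12 with TBX3, 1.28, 1.01 and 0.646 with TBX4, and 0.664, 1.19 and 2.23 with TBX5. Its TBX2 libraries, too, lay above all others, with a log2 fold change of 1.53 ± 0.24, adjusted p = 4.42e-05.

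COL6A1 and COL6A2 code for chains of the microfibrillar collagen VI. COL6A1 held 13.6 to 17.8 CPM in the 6 controls (median 16.3), 15.8, 13.3 and 14.4 with TBX2, 17.8, 17.4 and 14.9 with TBX3, 16.7, 16.8 and 12.9 with TBX4, and 20.5, 22.2 and 23.7 with TBX5. Only the TBX5 libraries lay above every control, at a log2 fold change of 0.45 ± 0.10, adjusted p = 0.00568. COL6A2 held 19.3 to 23.4 CPM in the 6 controls (median 22.2), 20.7, 19.8 and 16.8 with TBX2, 22.99, 19.1 and 19.5 with TBX3, 19.2, 22.04 and 20.5 with TBX4, and 22.2, 25.3 and 24.7 with TBX5. Its groups overlapped the controls, and no comparison with them was called, with 0.12 ± 0.087, adjusted p = 0.433 for TBX5. COL13A1, a transmembrane collagen, was called lower with TBX4. COL13A1 held 4.15 to 5.24 CPM in the 6 controls (median 4.75), 3.66, 4.01 and 3.399 with TBX2, 3.66, 4.81 and 3.57 with TBX3, 3.83, 4.04 and 2.68 with TBX4, and 3.76, 5.54 and 4.08 with TBX5. Its TBX2 and TBX4 libraries lay below every control, at -0.35 ± 0.16 with TBX2 (adjusted p = 0.118) and -0.42 ± 0.16 with TBX4 (adjusted p = 0.0919), and the TBX4 call was lost in 7 of the 9 fits that left out 1 library. DESeq2 did not call COL13A1 with TBX4 either. COL5A1 and COL7A1 passed in none.

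**Figure D4:**
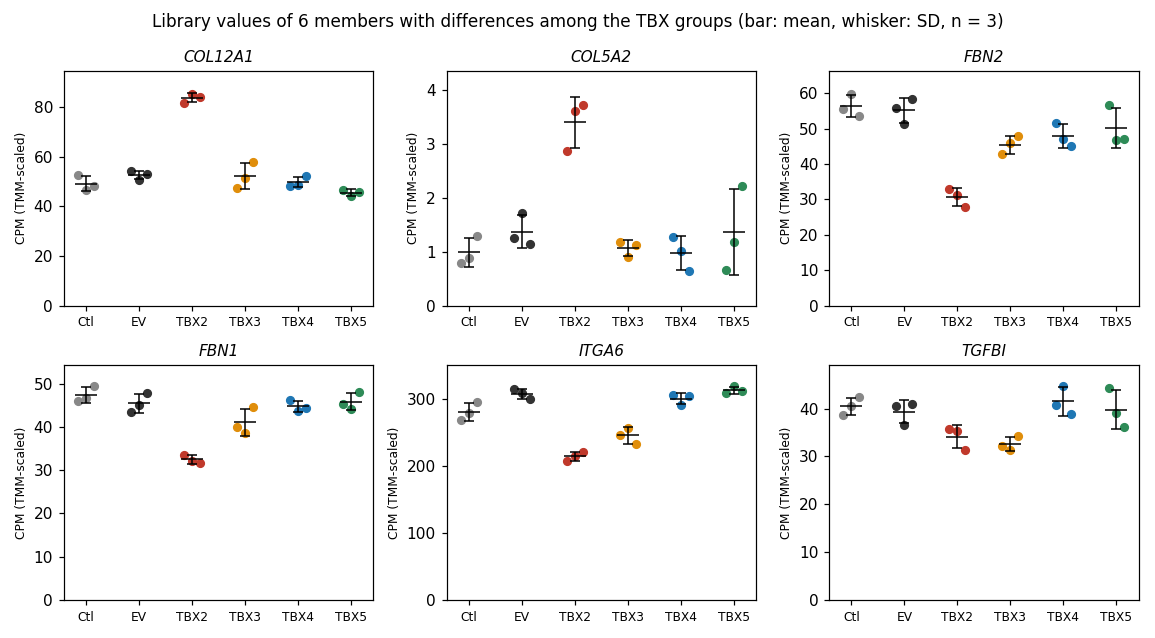
CPM in each library for COL12A1, COL5A2, FBN2, FBN1, ITGA6 and TGFBI, by group, with the mean and SD of 3 libraries. The TBX2 libraries lie highest for COL12A1 and COL5A2 and lowest for FBN2, FBN1 and ITGA6.

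Of the secreted glycoproteins, THBS1, or thrombospondin-1, a matricellular protein that binds integrins and activates latent TGF-beta (chr15:39873280-39891667, forward strand), was called lower with each TBX. THBS1 held 36.9 to 43.4 CPM in the 6 controls (median 42.8), 36.5, 34.5 and 29.9 with TBX2, 39.8, 29.2 and 34.3 with TBX3, 26.7, 25.7 and 31.8 with TBX4, and 28.4, 23.1 and 23.4 with TBX5. TBX2, TBX4 and TBX5 libraries lay below every control, and TBX3 replicate a lay among them. The log2 fold change of THBS1 was -0.30 ± 0.076 with TBX2 (adjusted p = 0.00548), -0.27 ± 0.079 with TBX3 (adjusted p = 0.0289), -0.58 ± 0.073 with TBX4 (adjusted p = 6.50e-06) and -0.72 ± 0.084 with TBX5 (adjusted p = 6.75e-06), and the TBX3 call was lost without TBX3 replicate b. CCN1 and CCN2, matricellular proteins induced by serum and by YAP, varied among the controls, with SDs of 32.9 and 11.6 CPM around means of 168 and 75.5 CPM (n = 6). CCN1 held 122 to 209 CPM in the 6 controls (median 167), 188, 103 and 228 with TBX2, 186, 153 and 173 with TBX3, 104, 136 and 172 with TBX4, and 224, 118 and 139 with TBX5. The CCN1 libraries overlapped the controls in every group, and no comparison was called. CCN2 held 55.5 to 90.4 CPM in the 6 controls (median 77.4), 88.6, 61.1 and 92.6 with TBX2, 94.1, 88.9 and 93.9 with TBX3, 66.3, 74.3 and 88.98 with TBX4, and 98.7, 66.7 and 74.02 with TBX5. The TBX3 libraries lay at or above the upper end of the controls without clearing them, at 0.29 ± 0.089, adjusted p = 0.0351, and the call was lost without TBX3 replicate a or c. It was also lost against the EV controls alone (0.18, adjusted p = 0.123) and in 1 fit of all 18 libraries (adjusted p = 0.105).

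TGFBI, a TGF-beta-induced protein that binds collagen and integrins, fell with TBX2 and TBX3. TGFBI held 36.6 to 42.3 CPM in the 6 controls (median 40.4), 35.7, 35.2 and 31.4 with TBX2, 32.1, 31.3 and 34.2 with TBX3, 40.7, 44.8 and 38.9 with TBX4, and 44.2, 38.97 and 36.2 with TBX5. Both of those groups lay below every control, at -0.22 ± 0.071 with TBX2 (adjusted p = 0.0240) and -0.29 ± 0.067 with TBX3 (adjusted p = 0.00703), and the TBX2 call was lost without TBX2 replicate c. TNC, or tenascin-C, passed in no comparison with the controls.

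The fibrillins build the microfibrils that hold elastin and latent TGF-beta. FBN2, fibrillin-2 (chr5:127593601-127994878, reverse strand), had the largest fall of any member. FBN2 held 51.4 to 59.8 CPM in the 6 controls (median 55.6), 32.97, 31.1 and 27.8 with TBX2, 42.7, 45.9 and 47.8 with TBX3, 51.7, 46.9 and 44.9 with TBX4, and 56.7, 46.9 and 47.1 with TBX5. TBX2 and TBX3 libraries lay below every control, and the TBX4 and TBX5 libraries overlapped them. For FBN2 the fitted log2 fold change was -0.86 ± 0.074 with TBX2 (adjusted p = 1.10e-08), -0.29 ± 0.065 with TBX3 (adjusted p = 0.00502), -0.23 ± 0.063 with TBX4 (adjusted p = 0.0232) and -0.14 ± 0.073 with TBX5 (adjusted p = 0.271), and the TBX4 call was lost without TBX4 replicate b or c. FBN1, fibrillin-1, was lower with TBX2 alone among the calls, at -0.52 ± 0.068, adjusted p = 5.36e-06.

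LOXL2, a lysyl oxidase that crosslinks collagen, was lower with each TBX. LOXL2 held 29.2 to 36.9 CPM in the 6 controls (median 33.2), 25.8, 19.8 and 21.7 with TBX2, 29.7, 27.5 and 24.2 with TBX3, 21.6, 25.1 and 25.2 with TBX4, and 28.3, 24.7 and 23.00 with TBX5. TBX2, TBX4 and TBX5 libraries lay below every control, and TBX3 replicate a overlapped them. Fitted against the controls, LOXL2 gave log2 fold changes of -0.57 ± 0.092 with TBX2 (adjusted p = 7.87e-05), -0.31 ± 0.083 with TBX3 (adjusted p = 0.0182), -0.47 ± 0.078 with TBX4 (adjusted p = 2.58e-04) and -0.37 ± 0.090 with TBX5 (adjusted p = 0.0118), and the TBX3 call was lost without TBX3 replicate c. LOX, the other lysyl oxidase of the list, passed in none, with log2 fold changes from -0.21 to 0.066.

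**Figure D5:**
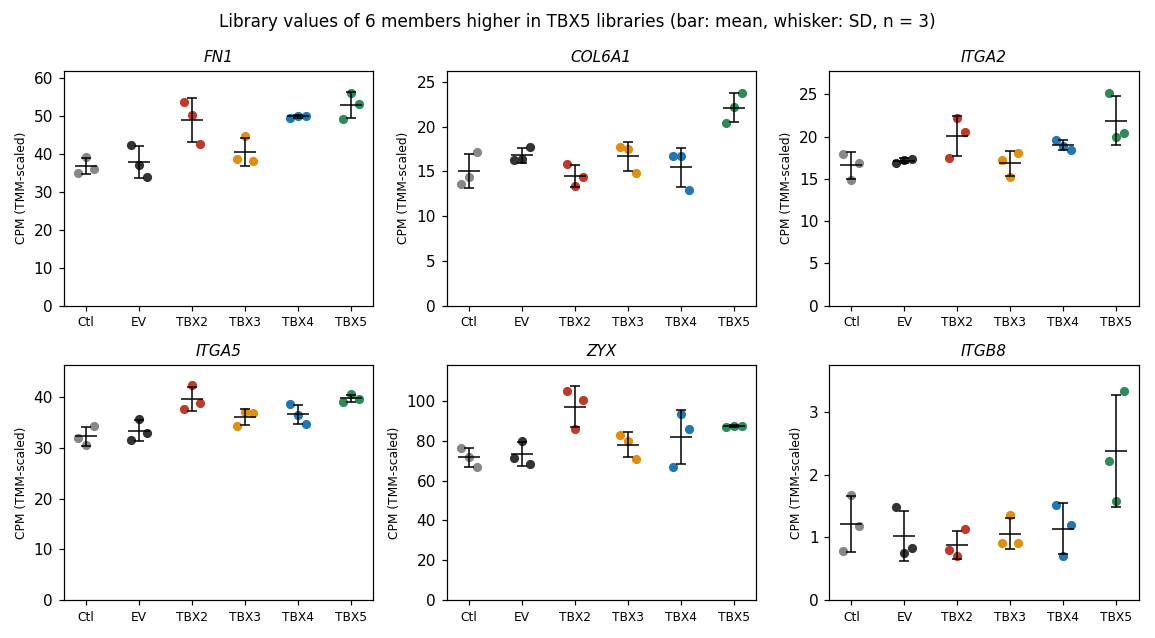
CPM in each library for FN1, COL6A1, ITGA2, ITGA5, ZYX and ITGB8, by group, with the mean and SD of 3 libraries. The TBX5 libraries lie above the 6 controls for FN1, COL6A1, ITGA2, ITGA5 and ZYX, and overlap them for ITGB8.

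The 2 control groups were set against each other to see whether the controls differ. No member was called in edgeR's test of EV against Ctl, where 0.282% of all genes were called higher and 0.103% lower, 5 members had an unadjusted p under 0.05, and DESeq2 called none, with 3 under that p. Those 5, named after their values were seen, were LAMA4, LAMB3, LAMC1, ITGA6 and CCN2, all higher with EV. The largest of their log2 fold changes was 0.97 ± 0.35, adjusted p = 0.379 for LAMA4, followed by 0.24 ± 0.080, adjusted p = 0.315 for LAMB3. Some calls against the pooled controls were lost with a single control group. With Ctl alone these were LAMC1, FLNA and TLN1 with TBX2, and LASP1, LAMB1, THBS1, FLNA and VCL with TBX3. They were also ITGA1 and COL13A1 with TBX4, and ACTN1 and ITGB8 with TBX5. With EV alone they were ITGA2, TGFBI and TLN1 with TBX2, and CCN2, ITGA3 and VCL with TBX3. With TBX4 they were ACTN1, ITGA1 and VCL, and with TBX5 ACTN1.

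The TBX groups were also compared with each other in 1 fit of the 18 libraries, which needs no control. By the paper, TBX2 and TBX4 were in pORF plasmids with a Flag tag, and TBX3 and Tbx5 in pCGN plasmids with an HA tag. In pairs across these vectors, as in the comparisons with controls, T-box protein, vector and tag cannot be told apart. Counts of the plasmid's gene also differed between groups, and the part of that in these differences was not tested. Those of mouse Tbx5, read on the human gene, are not comparable with the others. Between TBX2 and TBX3, 14 members were called (7 higher and 7 lower with TBX2), against 15.5% of all genes. Between TBX2 and TBX4, 10 were called (2 and 8), against 12.3% of all genes, and between TBX2 and TBX5, 13 (3 and 10), against 12.1%. FBN2 was lower with TBX2 than with TBX3 (-0.57 ± 0.090, adjusted p = 6.71e-05), TBX4 (-0.64 ± 0.087, adjusted p = 1.16e-05) and TBX5 (-0.72 ± 0.092, adjusted p = 2.75e-06). FBN1 was lower as well, at -0.35 ± 0.075, adjusted p = 0.00238 against TBX3, -0.46 ± 0.073, adjusted p = 9.82e-05 against TBX4 and -0.49 ± 0.078, adjusted p = 6.73e-05 against TBX5. COL12A1 and COL5A2 were called higher with TBX2 than with each of the other 3 TBX. Against TBX5 the difference was 0.87 ± 0.075, adjusted p = 2.37e-09 for COL12A1 and 1.43 ± 0.33, adjusted p = 0.00499 for COL5A2. ITGA3, ITGA6, VCL, ACTN4 and LASP1 were called lower with TBX2 than with each of the other 3 TBX. For ITGA3 the difference ran from -0.52 ± 0.076, adjusted p = 2.10e-05 against TBX3 to -0.31 ± 0.077, adjusted p = 0.00905 against TBX5.

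Between TBX3 and TBX4, 8 members were called (2 higher and 6 lower with TBX3), against 9.98% of all genes, and between TBX3 and TBX5, 9 (1 and 8), against 7.41%. ITGA6 was lower with TBX3 than with TBX5 (-0.35 ± 0.062, adjusted p = 5.88e-04), and FN1 likewise (-0.39 ± 0.092, adjusted p = 0.0109). THBS1 was higher with TBX3 than with TBX5 (0.44 ± 0.11, adjusted p = 0.0185). Between TBX4 and TBX5, 1 member was called against 0.539% of all genes, and it was COL6A1, lower with TBX4 (-0.50 ± 0.11, adjusted p = 0.0527). No member was called there without TBX4 replicate c, TBX5 replicate b or TBX5 replicate c, or at an adjusted p under 0.05. COL6A2, which codes for a chain of the same collagen, was lower with TBX2 than with TBX5 (-0.31 ± 0.10, adjusted p = 0.0686).

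A further 7 lists of adhesion and matrix genes were counted in the same fits, beside the shares of all genes given above, and the values given for their genes are log2 fold changes against the controls in the comparisons that passed. Of 7 tested other integrins, 2 rose and 1 fell with TBX2, and ITGAM, the alpha-M chain known from myeloid cells, gave the largest rise, at 2.42 ± 0.11 with TBX2 (adjusted p = 2.13e-13), from 3.73 ± 0.343 CPM (SD, n = 6) in the controls, beside 0.48 ± 0.14 with TBX4 (adjusted p = 0.0345). ITGA4, the alpha-4 chain, was -0.23 ± 0.065 with TBX2 (adjusted p = 0.0104) and -0.20 ± 0.064 with TBX3 (adjusted p = 0.0422). Of 27 tested other focal adhesion genes, 5 rose and 7 fell with TBX2, 5 and 3 with TBX3, 1 and 3 with TBX4, and 1 and 3 with TBX5. VASP, an actin polymerase of adhesions, was lower at -0.56 ± 0.073 with TBX2 (adjusted p = 4.46e-06), -0.23 ± 0.066 with TBX3 (adjusted p = 0.0250), -0.24 ± 0.067 with TBX4 (adjusted p = 0.0258) and -0.32 ± 0.070 with TBX5 (adjusted p = 0.00624). TNS2, or tensin-2, was lower at -0.90 ± 0.13 with TBX2 (adjusted p = 2.20e-05), -0.36 ± 0.12 with TBX3 (adjusted p = 0.0430) and -0.55 ± 0.12 with TBX4 (adjusted p = 0.00396). Of 25 tested actin cytoskeleton and SRF-linked genes, 4 rose and 10 fell with TBX2, with a median log2 fold change of -0.20, against 2 and 3 with TBX3, 1 and 3 with TBX4 and 1 and 3 with TBX5. ACTB, or beta-actin, was -0.25 ± 0.071 with TBX2 (adjusted p = 0.0111), -0.18 ± 0.066 with TBX3 (adjusted p = 0.0901) and 0.19 ± 0.063 with TBX5 (adjusted p = 0.0666). TPM1, a tropomyosin, was -0.23 ± 0.069 with TBX2 (adjusted p = 0.0163), -0.29 ± 0.061 with TBX4 (adjusted p = 0.00264) and -0.37 ± 0.072 with TBX5 (adjusted p = 0.00214).

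Of 30 tested other matrix and basement membrane genes, 6 rose and 6 fell with TBX2, 0 and 3 with TBX3, 3 and 2 with TBX4, and 7 and 0 with TBX5. SPP1, or osteopontin, was lower at -0.77 ± 0.20 with TBX2 (adjusted p = 0.00550) and -0.75 ± 0.19 with TBX3 (adjusted p = 0.0121). MATN2, or matrilin-2, was higher at 0.66 ± 0.23 with TBX2 (adjusted p = 0.0406), 0.66 ± 0.19 with TBX4 (adjusted p = 0.0318) and 0.69 ± 0.22 with TBX5 (adjusted p = 0.0609). Of 18 tested collagen processing genes, 1 rose and 4 fell with TBX2, 2 and 4 with TBX3, 0 and 0 in edgeR's test with TBX4 (4 of them with an unadjusted p under 0.05), and 0 and 3 with TBX5. LOXL1, a lysyl oxidase, was lower at -0.73 ± 0.17 with TBX2 (adjusted p = 0.00217), -0.37 ± 0.13 with TBX3 (adjusted p = 0.0814) and -0.52 ± 0.16 with TBX5 (adjusted p = 0.0530). CRTAP, a subunit of the collagen prolyl 3-hydroxylase complex, was lower at -0.32 ± 0.063 with TBX2 (adjusted p = 5.90e-04), -0.29 ± 0.062 with TBX3 (adjusted p = 0.00364) and -0.18 ± 0.061 with TBX5 (adjusted p = 0.0765). Of 18 tested YAP and TEAD pathway genes, 3 rose and 7 fell with TBX2, 6 and 3 with TBX3, 0 and 4 with TBX4, and 1 and 4 with TBX5. AXL, a receptor tyrosine kinase and a YAP target, held 541 ± 23.3 CPM (SD, n = 6) in the controls and was -0.87 ± 0.063 with TBX2 (adjusted p = 7.67e-10), -0.54 ± 0.062 with TBX3 (adjusted p = 2.70e-06), -0.61 ± 0.057 with TBX4 (adjusted p = 4.02e-08) and -0.65 ± 0.063 with TBX5 (adjusted p = 4.66e-07). F3, or tissue factor, was higher at 0.71 ± 0.22 with TBX2 (adjusted p = 0.0196) and 0.75 ± 0.20 with TBX3 (adjusted p = 0.0178).

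Of 20 tested matrix proteases and inhibitors, 2 rose and 5 fell with TBX2, 3 and 4 with TBX3, 2 and 1 with TBX4, and 4 and 2 with TBX5. SERPINE2, a protease inhibitor, was higher at 0.88 ± 0.17 with TBX2 (adjusted p = 4.34e-04), 0.53 ± 0.17 with TBX3 (adjusted p = 0.0514), 0.50 ± 0.16 with TBX4 (adjusted p = 0.0453) and 1.04 ± 0.18 with TBX5 (adjusted p = 9.14e-04). Between EV and Ctl, 3 of these 20 genes were called higher with EV, where 0.282% of all genes were. Of the 27 other focal adhesion genes 1 was called lower, where 0.103% of all genes were, and the other lists held no call. Genes of the 7 lists called between EV and Ctl, named after their values were seen, included MMP1 (2.21 ± 0.46, adjusted p = 0.0419), PLAUR (0.26 ± 0.060, adjusted p = 0.0871) and CAV1 (-0.26 ± 0.060, adjusted p = 0.0854).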

How the data were processed

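RNA-seq libraries were paired-end, and the authors aligned reads to GRCh37.75 with STAR 2.3.0 and deposited read counts per Ensembl gene from featureCounts at default settings, without normalization, so reads were counted without strand. A gene was tested when over 5 counts were found in 10 or more of the 18 libraries. Each TBX (3 libraries) was compared with 6 pooled controls, and EV with Ctl, in separate fits, and pairs of TBX groups in a single fit of all libraries, by the quasi-likelihood test of edgeR 4.0.16 in R 4.3.3 with TMM scaling and Benjamini-Hochberg adjustment over all 15576 tested genes, at an adjusted p of 0.1. The SE was obtained by dividing the size of the log2 fold change by the root of its F statistic. Exon lengths came from GENCODE v44 lifted to GRCh37. The members and lists were chosen with earlier results of these data known. Library values are printed for the 4 called members with the largest change in each direction of each comparison and the member highest per kilobase in each role, and 2 genes are named per further list, those with the largest mean change among genes called in at least 2 comparisons, of which 1 is not reported here. The library values of VCL were added after its values were seen. The scripts were tested on simulated data in which 200 genes were changed. Those changes were larger than most reported here and lay in well-counted genes, so smaller changes and scarce genes were not covered. Alternatives were DESeq2 1.42.0, other scalings and filters, EV or Ctl controls alone, a replicate block, a GC correction, 1 fit, and leaving out each library. The smallest chi-square per degree of freedom between replicates was 2.26, so replicates differed by more than sampling noise.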

Additional observations from a re-analysis of the deposited data

Results flagged for a closer look

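Among the 43 tested members, 2 had a control library far from the other 5 by Dixon's ratio of gap to range, where chance flags about 1 in 20 groups. ITGA2, a collagen receptor chain, was lowest in Ctl replicate b at 14.9 CPM, against 16.9 to 17.98 CPM in the others, a ratio of 0.638. ACTN1, an alpha-actinin, was lowest in EV replicate c at 231 CPM, against 251.3 to 263 CPM in the others, a ratio of 0.633. Without EV replicate c, the TBX5 call of ACTN1 was the only one kept among the 9 fits that left out 1 library.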

How the results depend on the processing

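Library totals without TMM scaling gave 7 with TBX2, 0 with TBX3, 12 with TBX4 (12 higher and 0 lower) and 1 with TBX5 against the controls. Between TBX groups that scaling gave 1 for TBX2 against TBX3, 1 for TBX2 against TBX4, 2 for TBX2 against TBX5, 1 for TBX3 against TBX4, 0 for TBX3 against TBX5 and 16 for TBX4 against TBX5. Under that scaling the log2 fold change of FBN2 with TBX4 became 0.033, of VCL 0.10 and of ACTN1 0.086, and with TBX5 that of ITGA5 became -0.038 and of ZYX -0.041. The median of all genes moved to 0.25 with TBX4 and -0.31 with TBX5. The Ctl controls alone gave 8 with TBX3, and a fit with the dominant gene's share of each library as covariate gave 7 with TBX4. DESeq2 gave 4 and an adjusted p under 0.05 gave 5 for TBX3 against TBX4, and the latter gave 0 for TBX4 against TBX5. The cause of these changes was not tested. Leaving out 1 library gave 7 (without TBX4 replicate b) to 13 with TBX4, 0 to 1 for EV against Ctl (1 without Ctl replicate c), 3 to 6 for TBX3 against TBX4, 5 to 8 for TBX3 against TBX5 and 0 to 1 for TBX4 against TBX5. The replicate letters did not pair the samples, with a mean correlation of same-letter deviations of -0.00092, from -0.11 to 0.20. With the letter as a replicate block, 22, 14, 9 and 12 members were called with TBX2, TBX3, TBX4 and TBX5, 0 for EV against Ctl, and between TBX groups 14, 11, 13, 8, 8 and 1, in the order given above. Depth limits the members under about 2 CPM, among them ITGB8, LAMA4, COL5A2 and the 7 that were not tested.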
